A study of Rattus norvegicus with 6 samples.

Results

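The mitochondrial ribosomal protein genes were measured in the renal cortex of rats given o-anthranilic acid. Members were all genes whose array accession maps to a rat symbol that begins with Mrpl or Mrps and a digit. 66 such genes were found among the 30709 features tested, 42 named Mrpl and 24 named Mrps. Of the 78 protein-coding symbols of this form in the naming table, the 12 with no matched probe were Mrpl28, Mrpl33, Mrpl39, Mrpl41l1, Mrpl42l1, Mrpl43, Mrps6, Mrps7, Mrps10, Mrps21l, Mrps28 and Mrps36l1. All 66 were well above background on all 6 arrays, so none was lost to the filter on dim probes.

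The animals were male Sprague-Dawley rats of the Crl:CD(SD) stock, bought at 5 weeks of age. Corn oil, the vehicle, was given to 3 of them, and o-anthranilic acid to the other 3 at a dose of 1000 mg/kg/day. Dosing lasted 4 weeks in both groups. The compound, also called ortho-aminobenzoic acid, is formed in mammals from tryptophan. Total RNA of each animal's renal cortex was labelled with Cy3 and hybridised to its own single-colour Agilent array, and the labels call the 3 animals of a group biological replicates.

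Mitochondria build the core membrane subunits of the respiratory chain on ribosomes of their own. The RNA of these ribosomes is encoded by mitochondrial DNA, whereas every protein of the particle is encoded in the nucleus, made in the cytosol and imported. The small subunit decodes the messenger RNA and the large subunit joins the amino acids, and both carry proteins shared with bacterial ribosomes together with proteins found only in mitochondria. The proximal tubule, which makes up most of the renal cortex, is dense with mitochondria that power the reabsorption of filtered solutes.

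The promoters of the members are shown first, since the genes are often described as sharing recognition sequences for the factors NRF1, GABPA (a factor of the ETS family) and YY1. The first 4 below belong to the members with the smallest p in the comparison of treatments, and the last 2 to members with matches to both the NRF1 and the ETS motif. Each runs from 100 bases before to 30 bases after the annotated start, taken from RefSeq on build GRCr8, and capitals mark motif matches. The windows are chr9:52605578-52605707 (plus strand) for Mrps9, chr4:69566909-69567038 (minus strand) for Mrps33, chr2:52195875-52196004 (minus strand) for Mrps30, chr9:22367351-22367480 (minus strand) for Mrps18a, chr20:2842906-2843035 (plus strand) for Mrps18b and chr15:36086357-36086486 (plus strand) for Mrpl57.
Mrps9: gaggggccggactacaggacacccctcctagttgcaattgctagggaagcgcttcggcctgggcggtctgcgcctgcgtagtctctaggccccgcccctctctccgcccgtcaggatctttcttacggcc
Mrps33: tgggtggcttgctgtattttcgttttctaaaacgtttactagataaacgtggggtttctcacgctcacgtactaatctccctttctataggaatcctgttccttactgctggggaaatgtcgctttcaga
Mrps30: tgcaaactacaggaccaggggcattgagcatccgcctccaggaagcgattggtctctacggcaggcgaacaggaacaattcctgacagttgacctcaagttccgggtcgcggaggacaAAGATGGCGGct
Mrps18a: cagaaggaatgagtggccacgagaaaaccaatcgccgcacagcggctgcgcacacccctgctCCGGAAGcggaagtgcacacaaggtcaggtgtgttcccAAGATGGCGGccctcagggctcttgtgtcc
Mrps18b: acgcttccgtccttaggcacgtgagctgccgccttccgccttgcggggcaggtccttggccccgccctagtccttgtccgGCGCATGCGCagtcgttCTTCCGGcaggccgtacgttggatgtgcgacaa
Mrpl57: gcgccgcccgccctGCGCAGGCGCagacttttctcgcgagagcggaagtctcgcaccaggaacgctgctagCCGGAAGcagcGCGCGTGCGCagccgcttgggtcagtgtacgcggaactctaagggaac

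Promoter entries of 300 bases, 250 before to 50 after the start, were found for 54 of the 66 members. The ETS motif, CCGGAAG searched on both strands, was present in 19 of the 54 windows (35.2%), against 11.2% of 19005 windows of all protein-coding genes. The NRF1 motif, seen in capitals in the Mrps18b and Mrpl57 windows and searched on both strands with 1 base left free, was present in 9 (16.7%), against 6.09%. The YY1 motif, seen at the end of the Mrps30 window and searched on both strands, was present in 6 (11.1%), against 1.54%. The letters of the TATA box, TATAAA, searched at any position on both strands, were present in 13% of member windows and 13.1% of all windows. Whether such a match acts as a TATA box was not tested. The member windows also held more CpG pairs, with a median of 18 against 12 in all windows, and the part of base composition in the motif shares was not tested.

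Most ETS and YY1 matches in the members lay close to the start of transcription, and the NRF1 matches were more spread. The windows reach only from 250 bases before to 50 after the start, and match positions in other genes were not examined. Of the 21 ETS matches, 20 lay within 100 bases before to 50 bases after the start, with a median position of -29. All 6 YY1 matches lay after the start, with a median position of 22. Of the 11 NRF1 matches 7 lay in the same stretch, with a median position of -62. 6 members held more than 1 of the motifs, namely Mrpl30, Mrpl57, Mrps18a, Mrps18b, Mrps26 and Mrps27, and no match of one motif overlapped a match of another. 26 of the 54 windows held none, among them those of Mrps9 and Mrps33. Windows of 65 respiratory chain subunit genes on the array, ATP synthase genes included, gave 30.8% for ETS, 18.5% for NRF1 and 12.3% for YY1. Their median was 20 CpG pairs. Windows of 63 cytosolic ribosomal protein genes on the array gave 28.6%, 9.52% and 4.76%, with a median of 22. The differences between these lists and the members were not tested.

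**Figure D1:**
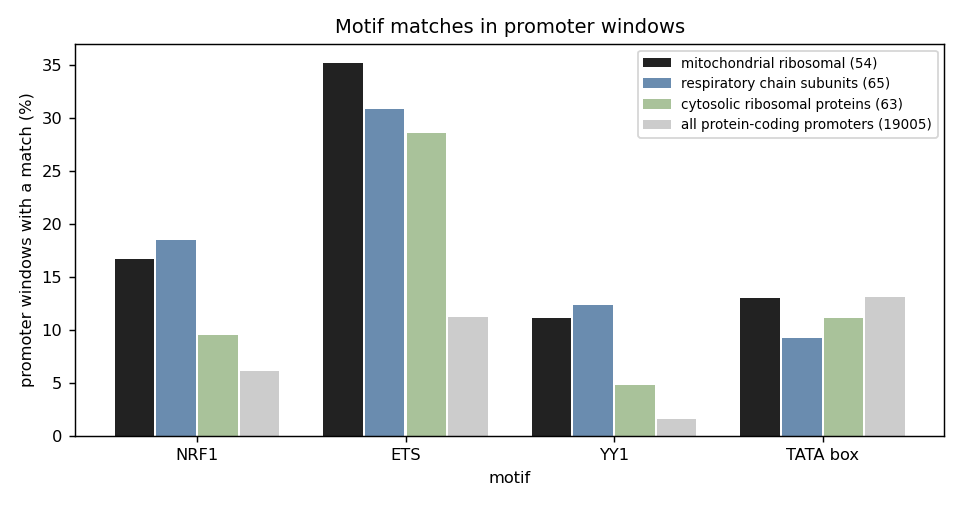
Percentage of 300-base promoter windows with at least 1 match, on either strand, to the NRF1, ETS, YY1 and TATA box motifs. Bars stand for the 54 mitochondrial ribosomal protein genes with a promoter entry, 65 respiratory chain subunit genes and 63 cytosolic ribosomal protein genes measured on the array, and all 19005 protein-coding genes; the ETS bar of the mitochondrial ribosomal genes is at 35.2% and that of all genes at 11.2%.

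Signals were put on the log2 scale relative to each array's 75th percentile, so a value of 0 equals that percentile. Levels of different genes are not compared, because each probe has its own brightness. The share of probes well above background lay between 63.7% and 69.3% per array, and no spot was saturated. Of the 12 proximal tubule markers fixed for this tissue, all 12 were measured, with mean signals between 2.16 and 9.42. Their median log2 fold change was 0.00, with 6 above and 6 below 0, and their range was -0.15 to 1.18. The highest was Slc7a13, at 1.18 ± 0.61 (SE), with log2 signals of 6.35, 4.41 and 4.83 in vehicle and overlapping groups. The lymphocyte markers were dim, with a median signal of -4.63. The 5 erythrocyte markers measured all stood above 0, with a median log2 fold change of 0.43, and their part in the results below was not tested. In RNA of a whole tissue, fewer cells of a type and less RNA per cell cannot be told apart.

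Treated and vehicle animals were compared to ask whether transcripts of the mitochondrial ribosome differed after 4 weeks of o-anthranilic acid. No member passed the threshold: limma with Benjamini-Hochberg adjustment over all 30709 features called 0 of 66, and the adjusted p of the members lay between 0.567 and 0.999. It also called 0% of all features, with a smallest adjusted p of 0.0786. The log2 fold changes of the members ran from -0.19 for Mrps33 and Mrpl19 to 0.23 for Mrps9, so the farthest member differed by 1.18-fold. Their median was 0.03, against -0.01 over all features. 41 members stood above 0 and 25 below, or 62.1% above, against 48.6% of all features.

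The intervals of the members were narrow. The median standard error of a member's log2 fold change was 0.08, against 0.11 over all features. For 65 of the 66 members the 95% interval lay within 0.5 of 0 on either side, which is 1.41-fold, and for 29 it lay within 0.25, or 1.19-fold. The exception to the wider bound was Mrpl19, whose interval ran from -0.54 to 0.17. Its log2 signals were 1.72, 1.94 and 1.76 in vehicle and 1.67, 1.84 and 1.35 in treated animals, so 1 treated array stood below all others. Differences larger than a member's bounds lie outside its interval. The p-values, standard errors and intervals are moderated by limma. They combine a gene's own spread between the 3 animals per group with the spread over all features. The smallest standard error of a member was 0.07, also where its own values lay closer together.

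**Figure D2:**
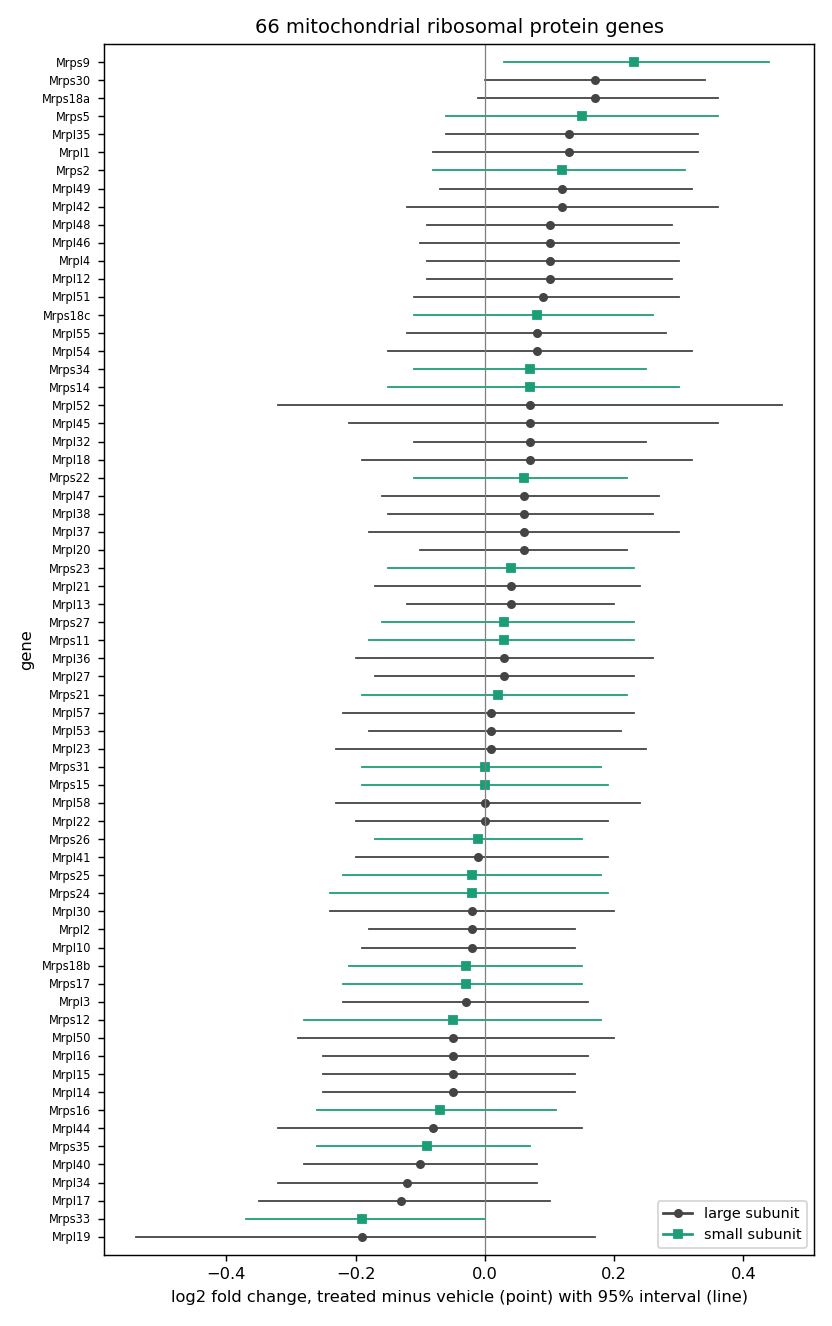
Log2 fold change of each of the 66 genes, treated minus vehicle (points, 3 animals per group), with its 95% interval from limma (lines). Circles are large subunit and squares small subunit genes; estimates run from -0.19 (Mrpl19 and Mrps33) to 0.23 (Mrps9), and the Mrpl19 line reaches -0.54.

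At an unadjusted p under 0.05 there were 2 members, or 3.03%, below the background of 8.32% of all features. 1 was higher in treated animals, against a background of 3.52%, and 1 was lower, against 4.8%. Mrps9, a small subunit protein with a bacterial homologue, had log2 signals of 2.05, 2.19 and 2.03 in vehicle and 2.23, 2.36 and 2.39 in treated animals. The groups did not overlap, and the highest vehicle value lay just under the lowest treated one. The log2 fold change of Mrps9 (NM_001100549) was 0.23 ± 0.09 (SE), with an adjusted p of 0.567 from limma with Benjamini-Hochberg adjustment. Mrps33 (NM_001047863), a small subunit protein found only in mitochondria, stood at 4.21, 4.21 and 4.29 in vehicle and at 3.96, 4.11 and 4.08 in treated animals. All treated values lay under all vehicle values, and the log2 fold change was -0.19 ± 0.08 (SE), with an adjusted p of 0.599 from limma. The count depended on single arrays. No member was left at this p when vehicle replicate 1 or 3, or treated replicate 2 or 3, was left out. Leaving out vehicle replicate 2 gave 1 member, Mrps9, and leaving out treated replicate 1 gave 2, Mrps5 and Mrps9, both higher. With an array left out, the share of all features at this p lay between 6.78% and 8.9%.

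The next members in order of p were Mrps30 and Mrps18a. Their symbols carry the letter of the small subunit, but both proteins sit in the large subunit of the mammalian particle. Mrps30 had log2 signals of 3.47, 3.52 and 3.42 in vehicle and 3.66, 3.61 and 3.65 in treated animals. Every treated value exceeded every vehicle value, by a log2 fold change of 0.17 ± 0.07 (SE), with an adjusted p of 0.603 from limma. The second probe of Mrps30, not used in the test, also gave 0.17. Mrps18a stood at 2.95, 2.91 and 2.99 in vehicle and at 3.13, 3.20 and 3.04 in treated animals, again without overlap. Its log2 fold change was 0.17 ± 0.08 (SE), with an adjusted p of 0.62 from limma. The paralogues of Mrps18a, which belong to the small subunit, had log2 fold changes of -0.03 ± 0.07 for Mrps18b and 0.08 ± 0.08 for Mrps18c (SE), and both overlapped between the groups.

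The groups did not overlap for 8 of the 66 members, or 12.1%, against 14.6% of all features. 5 were higher in treated animals, against a background of 6.51%, and 3 were lower, against 8.13%. Beside Mrps9, Mrps30 and Mrps18a the higher ones were Mrpl1, at 0.13 ± 0.08 (SE), and Mrpl20, at 0.06 ± 0.07. Mrpl20 lay at 5.09, 5.09 and 5.15 in vehicle and at 5.18, 5.17 and 5.16 in treated animals, an ordering without overlap over a range of 0.09. Beside Mrps33 the lower ones were Mrpl17, at -0.13 ± 0.09, and Mrps35, at -0.09 ± 0.07. For Mrpl17 the nearest values of the groups both rounded to 4.58, so they were apart by less than 0.01. Its other probes, not used in the test, gave 0.02, 0.00 and -0.17, so its direction also rests on the probe chosen. The shares of members apart in either direction were near or under the background.

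**Figure D3:**
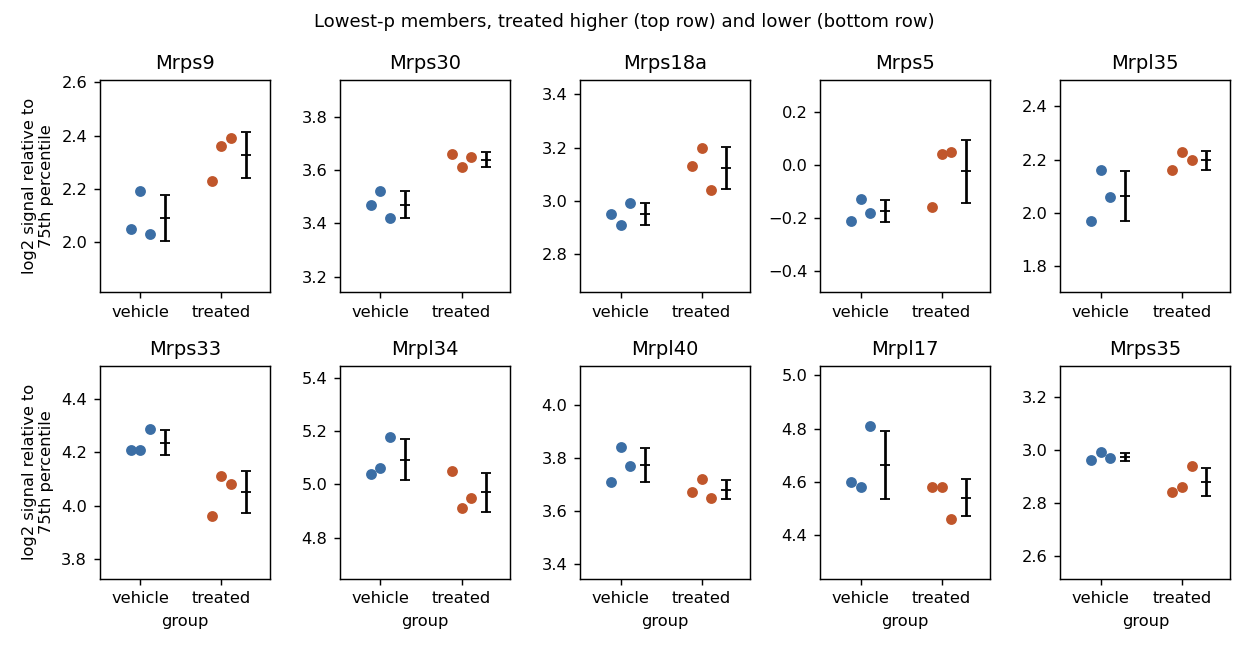
Log2 signal relative to the array's 75th percentile on each array (points, 3 vehicle in blue and 3 treated in orange) for the 5 members with the smallest p among those higher (top row) and lower (bottom row) in treated animals, with the mean and SD of each group (black). Each panel spans 0.8 log2 units; Mrps9, Mrps30, Mrps18a, Mrps33, Mrpl17 and Mrps35 show no overlap between the groups.

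Among the other small subunit genes, Mrps5, at 0.15 ± 0.09 (SE), and Mrps2, at 0.12 ± 0.08, came next, and both overlapped between the groups. Mrps2 had log2 signals of 2.54, 2.69 and 2.64 in vehicle and 2.83, 2.72 and 2.69 in treated animals. Its other probes, not used in the test, gave 0.45 and -0.06, the widest gap among the probes of any member. Mrps12, a protein of the decoding centre, stood at -0.05 ± 0.09 with an interval from -0.28 to 0.18. Mrps14, Mrps16, Mrps22 and Mrps34, genes in which variants cause human mitochondrial disease, had log2 fold changes of 0.07, -0.07, 0.06 and 0.07. Mrps16 was at 5.87, 5.86 and 5.87 in vehicle and at 5.88, 5.78 and 5.72 in treated animals. The vehicle values were almost equal, and the treated values lay on both sides of them. Mrps27, which belongs to the pentatricopeptide repeat proteins that bind RNA, stood at 0.03 ± 0.08. Over the 22 small subunit genes the median was 0.01, with 12 above 0.

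The large subunit genes gave a median of 0.04 over 44 genes, with 29 above 0, counting Mrps18a and Mrps30 among them. Mrpl12, which forms the flexible stalk that recruits translation factors and which also binds the mitochondrial RNA polymerase, had log2 signals of 5.40, 5.47 and 5.53 in vehicle and 5.65, 5.51 and 5.53 in treated animals. 1 treated array exceeded all others and the rest overlapped, with a log2 fold change of 0.10 ± 0.08 (SE) and an interval from -0.09 to 0.29. Mrpl10, the base of that stalk, stood at 6.96, 6.90 and 6.88 in vehicle and at 6.93, 6.85 and 6.88 in treated animals. The groups overlapped, and the interval ran from -0.19 to 0.14. Mrpl58, which frees peptides from stalled ribosomes, stood at 0.00 ± 0.10, and Mrpl44, related to the ribonuclease III family, at -0.08 ± 0.10. Mrpl36 and Mrpl3, which have bacterial homologues, stood at 0.03 ± 0.09 and -0.03 ± 0.08, and Mrpl41, found only in mitochondria, at -0.01 ± 0.08. Mrpl35 and Mrpl34, both with bacterial homologues, were at 0.13 ± 0.08 and -0.12 ± 0.08. Mrpl40 was at -0.10 ± 0.07, but its 3 other probes gave -0.19, 0.11 and 0.27, so its direction rests on the probe chosen.

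The 38 members on a fixed list of proteins with a bacterial homologue had a median log2 fold change of 0.02. The 28 members outside that list had one of 0.05, and whether each of them lacks a bacterial homologue was not examined. The naming table lists pseudogenes for 21 members, up to 9 for Mrpl30. The median was 0.02 for these 21 and 0.03 for the other 45, and cross-hybridisation of pseudogene transcripts was not tested. 34 members had more than 1 probe, all of them kept, and in 25 of these the probes lay within 0.1 of each other. In 15 the probes fell on both sides of 0. By promoter motif, the median was 0.02 for the 19 members with an ETS match and 0.06 for the 35 without, -0.02 for the 9 with an NRF1 match and 0.04 for the 45 without, and 0.08 for the 6 with a YY1 match and 0.03 for the 48 without.

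The members as a set also varied from animal to animal within each group. Each member's vehicle mean was subtracted, and the median of the 66 was then -0.06, 0.00 and 0.06 for vehicle replicates 1 to 3. For treated replicates 1 to 3 it was 0.07, 0.04 and -0.03. The groups therefore overlapped, and vehicle replicate 3 stood above treated replicates 2 and 3. Vehicle replicate 1 was the lowest vehicle array for 44 members (66.7%), against 33.1% of all features. Treated replicate 3 was the lowest treated array for 41 (62.1%), against 36.3%, and treated replicate 1 was the highest for 41 (62.1%), against 35.8%. Over all features the median deviations lay between -0.01 and 0.01. Within a group, the median SD of a member was 0.076, against 0.142 over all features, many of which were dimmer: the median signal was 3.47 for the members and -1.04 over all features.

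**Figure D4:**
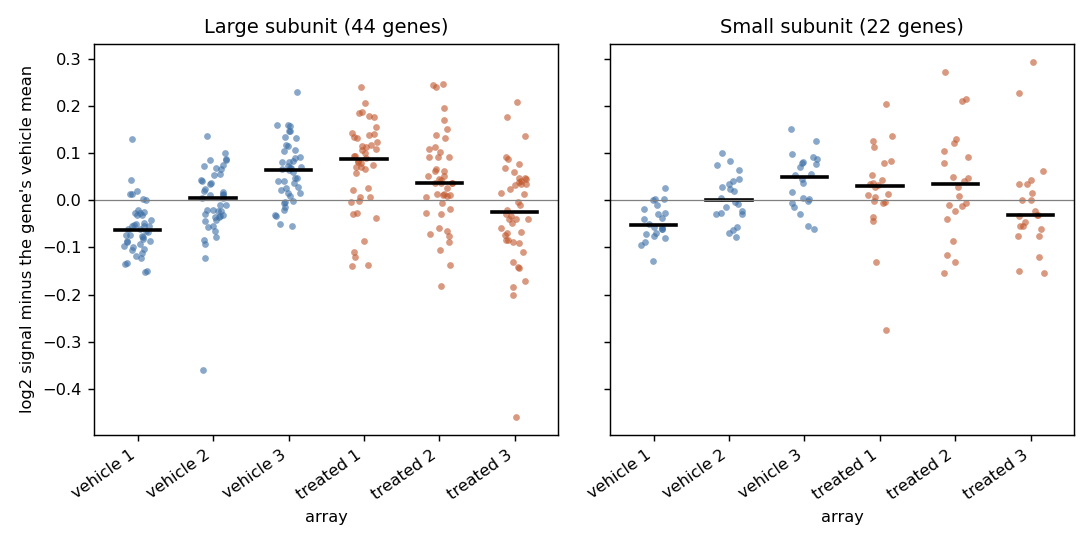
Log2 signal of each member on each array minus that gene's mean over the 3 vehicle arrays (points), with the median over genes (black lines), for 44 large and 22 small subunit genes. In both panels the median lines of the groups overlap, with vehicle 1 the lowest and vehicle 3 the highest of the vehicle arrays; the lowest point is Mrpl19 on treated 3.

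Other genes listed for the same ribosome gave similar values. From a list of mitoribosomal proteins under other symbols 6 genes were measured, and none had an unadjusted p under 0.05. They were Dap3, Ptcd3, Chchd1, Aurkaip1, Gadd45gip1 and Kgd4. Whether Kgd4, at 0.07 the highest of the 6, belongs to the ribosome was not examined. Dap3, a GTP-binding protein of the small subunit, stood at 0.03 ± 0.09 (log2 fold change ± SE), and over the 6 the range was -0.04 to 0.07. Of 25 assembly factors 21 were measured, with a median of 0.08, 14 above 0 and none at an unadjusted p under 0.05. Dhx30, an RNA helicase, stood at 0.18 ± 0.09, with log2 signals of 4.45, 4.25 and 4.51 in vehicle and 4.58, 4.63 and 4.53 in treated animals. These did not overlap, and the adjusted p was 0.661. The groups were also apart for Rpusd4, a pseudouridine synthase, at 0.12 ± 0.07, and for Noa1, a GTPase, at -0.10 ± 0.07. These 3 are 14.3% of the 21, against 14.6% of all features.

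Among the 12 measured genes of a list of mitochondrial translation factors, those farthest from 0 went opposite ways. The list also holds Lrpprc, Slirp, Taco1 and Oxa1l, and whether each of its genes is a translation factor was not examined. Mtif2, an initiation factor, had log2 signals of 1.86, 2.01 and 1.70 in vehicle and 2.19, 2.22 and 2.12 in treated animals. The log2 fold change of Mtif2 was 0.32 ± 0.10 (SE), with an adjusted p of 0.513 from limma. Tufm, the elongation factor that brings transfer RNA to the ribosome, had log2 signals of 5.41, 5.58 and 5.47 in vehicle and 5.23, 5.29 and 5.19 in treated animals. Its log2 fold change was -0.25 ± 0.08 (SE), with an adjusted p of 0.514, and the groups of both genes did not overlap. These were the 2 of the 12, or 16.7%, with an unadjusted p under 0.05, against 8.32% of all features. The 14 mitochondrial aminoacyl-tRNA synthetases measured, which charge transfer RNA, had 3 such genes, or 21.4% against 8.32% of all features, 2 higher and 1 lower, and a median of 0.02. In 5 of them, or 35.7%, the groups did not overlap, against 14.6% of all features. Wars2 stood at 0.33 ± 0.11 and Ears2 at -0.32 ± 0.12, with adjusted p of 0.532 and 0.557 from limma.

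The genes of mitochondrial transcription and DNA upkeep had a median of -0.06 over 11 measured genes. An unadjusted p under 0.05 was found for 1 of them (9.09%, against 8.32% of all features), Mterf2 at -0.22 ± 0.09 (SE). Ssbp1, which binds single-stranded mitochondrial DNA, was at 0.19 ± 0.09. Polrmt, the mitochondrial RNA polymerase, and Tfam, which packages mitochondrial DNA, stood at 0.02 ± 0.10 and 0.01 ± 0.08. The 9 regulators had a median of -0.04. Nrf1, Gabpa and Yy1, the factors whose motifs are described above, had log2 fold changes of 0.01 ± 0.10, 0.10 ± 0.07 and -0.07 ± 0.08, and their groups overlapped. Ppargc1a, a coactivator of mitochondrial genes, had log2 signals of -0.37, -0.30 and -0.44 in vehicle and -0.56, -0.57 and -0.50 in treated animals. The treated values lay lower without overlap, at -0.17 ± 0.07 with an adjusted p of 0.603 from limma. For Myc the log2 fold change was -0.44 ± 0.17 and the groups overlapped; its adjusted p was 0.59.

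The respiratory chain subunits had a median of -0.04 over 74 genes, with 20 above 0. Chosen by symbol, this list includes the Sdh genes, and it also holds ATP synthase genes and Cox6c-ps1, a pseudogene by its name. Whether Atp5if1 and Cox7a2l, on the list by their symbols, are subunits was not examined. The cytosolic ribosomal proteins had a median of 0.04 over 78 genes, with 57 above 0. No gene of either list was called. An unadjusted p under 0.05 was found for 2 (2.7%) and 1 (1.28%), against 8.32% of all features. The median deviations of the respiratory chain subunits were -0.08, -0.03 and 0.11 for vehicle replicates 1 to 3, and 0.01, -0.03 and -0.10 for treated replicates 1 to 3. Those of the cytosolic ribosomal proteins were -0.05, -0.10 and 0.15, and 0.07, 0.04 and 0.02. In all 3 lists vehicle replicate 3 was the highest vehicle array and treated replicate 1 the highest treated array, and the difference between the lists was not tested.

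**Figure D5:**
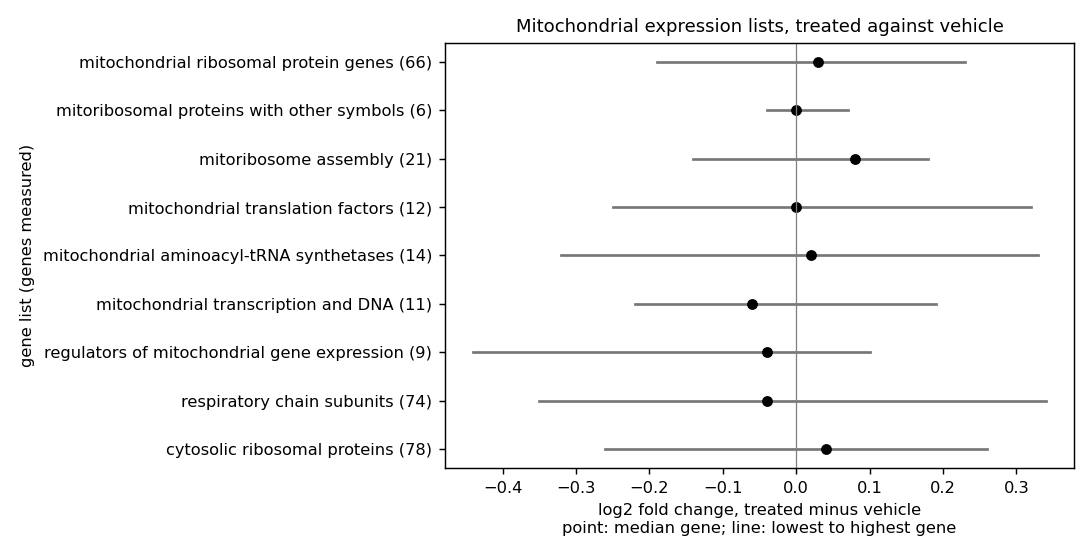
Log2 fold change, treated minus vehicle, of 9 gene lists, with the median gene (point) and the lowest to highest gene (line); the number of genes measured is in brackets. The medians lie between -0.06 and 0.08, and the 66 mitochondrial ribosomal genes span -0.19 to 0.23.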

How the data were processed

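The submitters' processing notes name Agilent Feature Extraction 10.7 for quantification. The deposited intensity per spot is linear, background-subtracted and detrended, and was not normalised between arrays, per the file headers. In the authors' value table each entry is a ratio of that signal to the array's 75th percentile, found by matching it to the scanner files; its replicate columns match scanner files of other replicate numbers in the same group, and replicates are named here by scanner file. Control spots, 84 external control probes and 47 probes with outlier flags were left out. Of 61526 probes, 27435 were named through RefSeq accessions. The 75th percentile was subtracted on the log2 scale, probes were kept if at least 3 of the 6 arrays flagged them well above background, and the brightest probe stood for each gene. The test was limma's moderated test (lmFit, eBayes; version 3.58.1, R 4.3.3) at an adjusted p of 0.05, tested on simulated data. Members and lists were chosen with earlier results of these data known. For each direction the 5 members lowest in p were named, together with a fixed set by role, of which Mrpl11 and Mrps7 were not analysed here; further members were named after their values were seen. Lists were described by counts and medians, without a test; Ict1, in the list of other symbols, is an older symbol of the member Mrpl58. The medians of the other marker lists were 0.00 for thick ascending limb and distal tubule, -0.06 for collecting duct, -0.09 for podocyte, -0.04 for endothelium, 0.19 for fibroblast, -0.12 for macrophage and myeloid cells and 0.05 for lymphocyte. Alternatives were other background corrections, scalings, filters and fits, and each array left out.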

Additional observations from a re-analysis of the deposited data

How the results depend on the processing

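No mitochondrial ribosomal gene was called by limma in any of 16 alternatives. Their median log2 fold change stayed between 0.00 (without vehicle replicate 1) and 0.07 (without vehicle replicate 3), the large subunit between 0.01 and 0.08 and the small subunit between -0.02 and 0.04. The members at an unadjusted p under 0.05, 2 in the report, were 1 with normexp background correction and with median scaling, 4 when probes of a gene were averaged and when limma used a variance trend and robust estimates, 0 with no filter and 0 with the slide as a block, which is the same as leaving out treated replicate 2, alone on its slide. They were 3 with quantile normalisation. With the replicate number as a block they were 0, and no call changed in that fit. Deviations of same-numbered animals correlated at 0.02, -0.04 and -0.02, so no deviation shared by them was seen. Such correlations cannot exclude that the animals were paired. Leaving out each array in turn gave 0 to 2. Over the alternatives the share of all features at this p lay between 6.58% (no filter) and 8.9% (without vehicle replicate 2). Over all features limma called 5 with normexp background correction, 5 with the trend and robust estimates, 3 with the slide as a block, 2 with averaged probes, 1 with all 6 arrays well above background, and 0 to 3 with an array left out. The log2 fold change of Mrps9 ranged from 0.20 to 0.28 and that of Mrps33 from -0.21 to -0.14. The lowest value of any member in the alternatives was that of Mrpl19, -0.30 with the slide as a block. Mrpl40 changed sign with averaged probes, to 0.02. Mrpl3, Mrpl36, Mrpl41, Mrps18b and Mrps27, which lay between -0.03 and 0.03 in the report, also changed sign in 1 or 2 alternatives each. Mrpl58, at 0.00 in the report, ranged from -0.05 to 0.08. The scanner files held no mean spot signal, so normexp used medians. With 3 arrays per group, the interval lay inside 0.25 on either side of 0 for 29 of the 66 members and reached past it for the others.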
